A study of Mus musculus with 4 samples.

Results

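Eph receptors are receptor tyrosine kinases at the cell surface, and ephrins are the membrane-bound ligands they bind on neighbouring cells. Described here are 10 genes of the family, chosen by symbol: the A-class receptors Epha3, Epha4, Epha5, Epha6 and Epha7, the B-class receptors Ephb1 and Ephb2, the A-class ligands Efna3 and Efna5, and the B-class ligand Efnb3. They were 10 of the 22 Eph and ephrin genes among the 43348 genes listed for every library. RNA was measured in single cells sorted from the frontal cortex and the hippocampus of juvenile mice (postnatal days 18 to 20) for the red reporter TdTomato, which the Ai14 allele expresses wherever Nkx2-1-Cre has acted. Nkx2-1-Cre acts in progenitors of the medial ganglionic eminence (MGE), the embryonic source of many cortical and hippocampal interneurons, and also in glial precursors. WT animals (Grin1 wt/wt) were compared with null littermates (Grin1 fl/fl), in which the same Cre removes Grin1, the gene of the obligatory NMDA receptor subunit. Both genotypes carried the Cre and the reporter, both sexes were used, several animals were pooled in each library, and tetrodotoxin, APV and actinomycin D were present during tissue processing in every group. The 10 libraries comprised 3 WT and 2 null libraries from each region, with replicate 1 made with 10x 3′ chemistry v2 and replicates 2 and 3 with v3.

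EphA receptors mainly bind ephrin-A ligands, which are held in the membrane by a lipid anchor, and EphB receptors mainly bind transmembrane ephrin-B ligands, while EphA4 binds ligands of both classes. Contact between cells signals in both directions, forward through the receptor's kinase and in reverse through the ligand, and often ends in repulsion of a growth cone or a migrating cell. In the forebrain the family guides axons and migrating interneurons and shapes dendritic spines and synapses, and EphB2 is known to associate with NMDA receptors at excitatory synapses.

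The sorted cells numbered 26987, of which 26201 were kept, with 169924587 unique molecular identifiers (UMIs) in all. In null cortex 97.8 and 89.0% of the cells of replicates 1 and 2 were kept, and in null hippocampus 99.3 and 91.4%. Each WT library kept at least 99.2%. The WT cortex libraries held 9306756, 14212183 and 28057207 UMIs, and the null cortex libraries held 1488601 and 25688337. From the hippocampus, the WT libraries held 10555408, 8782181 and 20639002 UMIs, and the null libraries held 3856745 and 47338167. Any pair of libraries shared at most 12 cell barcodes, and at most 0.5525% of the smaller library. Replicate 2 of WT hippocampus stood apart: its median of 1479 UMIs per cell was the lowest of the 10 libraries, and the others had medians between 2903 and 9508. The main values that rest on this library are therefore also given without it.

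Classes were named from marker genes, so that a name such as SST stands for cells like that class by their markers. The interneurons comprised 6645 SST cells, 2238 PVALB cells and 2173 neurogliaform (NGFC) cells. The other named classes used below were 8681 oligodendrocytes, 1940 committed oligodendrocyte precursors, 1405 oligodendrocyte precursor cells (OPCs), including the 337 cells of cluster 27, 984 glutamatergic neurons, 430 astrocytes, 264 microglia and 95 endothelial cells. The 10 top genes of cluster 27 held 2 markers from the list of cycling cells and 0 of OPCs, so OPC values cover cycling cells too. Counts of a class were summed per library and are given as UMIs per 1000000 UMIs of that sum (CPM). SST sums held 101 to 1609 cells and PVALB sums 27 to 669. NGFC sums held 50 to 670 cells, because the 5 NGFC cells of cortex null replicate 1 were too few (fewer than 10) and were left out. Intervals are 95% exact Poisson intervals and cover counting error only.

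RNA of oligodendrocytes was present at low levels in interneuron sums. The markers Mbp, Mag, Mog, Mobp and Opalin, led by Mbp, summed to 1609 CPM in NGFC cells of WT hippocampus replicate 2, which was 9.71% of the level in that library's oligodendrocytes. The sum in PVALB cells of that library was 686 CPM (4.14%), and in SST cells it was 806 CPM (4.86%). All 5 markers were detected in each, and these shares were the highest of the 10 libraries in each class. In SST cells the sums were 181, 249.9 and 147 CPM in WT cortex, 191 and 184 in null cortex, 839, 806 and 486 in WT hippocampus, and 1161 and 391 in null hippocampus. In SST cells the marker sum was thus higher in each hippocampal library than in any cortical library. In PVALB cells it was 88.6, 268 and 146 CPM in WT cortex and 499, 686 and 697 in WT hippocampus, and in NGFC cells the regions overlapped (568, 66.5 and 674 CPM against 647, 1609 and 332). Its part in the regional differences below was not tested. In SST cells the sum of 6 astrocyte markers, led by Aldoc, was 34.2, 20.0 and 17.5 CPM in WT cortex and 58.9 and 73.4 in null cortex. It was 44.3, 68.2 and 64.7 CPM in WT hippocampus and 125 and 95.5 in null hippocampus. The genotypes did not overlap in either region, but most of each sum was Aldoc. Aldoc alone was at 31.9, 15.2 and 15.5 CPM in WT cortex and 56.7 and 71.6 in null cortex. In the hippocampus it was at most 61.1 CPM in WT and at least 91.7 in null. The lack of overlap is thus that of a single gene, and is not shown for astrocyte RNA at large. The part of this sum in the genotype differences was not tested.

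The EphA receptors lay on several chromosomes (build mm10). Epha3 (ENSMUSG00000052504.6) lies at chr16:63543534-63864175 and Epha6 (ENSMUSG00000055540.11) on the same chromosome at chr16:59653483-60605531, both on the minus strand. Epha4 (ENSMUSG00000026235.10) lies at chr1:77367185-77515088 and Epha5 (ENSMUSG00000029245.12) at chr5:84054761-84417382, also on the minus strand. Epha7 (ENSMUSG00000028289.8), at chr4:28813131-28967499, is the member on the plus strand. Ephb2 (ENSMUSG00000028664.10) shares that chromosome at chr4:136647539-136835988, and Ephb1 (ENSMUSG00000032537.10) lies at chr9:101922128-102354693. The ligand genes Efna3 (ENSMUSG00000028039.7), Efna5 (ENSMUSG00000048915.8) and Efnb3 (ENSMUSG00000003934.5) lie at chr3:89313899-89322965, chr17:62604184-62881317 and chr11:69554092-69560205. The counts come from tags near 3′ ends, and no annotated gene on the same strand overlapped the 3′ end of a member.

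Among WT interneurons, Epha3, a receptor for ephrin-A5, was highest in NGFC cells. Its level in 6 WT libraries ran from 22.9 through a median of 41.8 to 54.7 CPM in NGFC cells, against 9.12, 10.96 and 16.7 CPM in SST cells. PVALB cells had 4.42, 7.67 and 17.8 CPM, so that NGFC libraries overlapped neither of the other interneuron classes, while SST and PVALB libraries overlapped. Glutamatergic neurons (5 libraries) were at 0 to 13.4 CPM with a median of 8.72, overlapping SST and PVALB cells, and every glial class had a median of 0 CPM.

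Epha4, the receptor that binds both ligand classes, was highest in glutamatergic neurons. There it ran from 226 to 374 CPM with a median of 309, above every other class. Endothelial cells, summed in a single library, had 133 CPM. Committed precursors had 44.9, 82.3 and 129 CPM as lowest, median and highest, and overlapped oligodendrocytes at 26.6, 54.6 and 85.4 CPM. The interneuron classes overlapped each other: SST cells had 17.2 to 58.8 CPM with a median of 36.2. PVALB cells had 2.92 (from 1 UMI) to 48.0 CPM (median 34.3), and NGFC cells had 6.47 to 38.7 CPM (median 28.5). OPCs, with a median of 28.3 CPM, and astrocytes, with 20.2 CPM, overlapped all of these interneuron ranges.

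Epha5, an ephrin-A receptor with wide neuronal expression, was highest in neurons of all classes, with a median of 1017 CPM in NGFC cells (431 to 2240.3). Glutamatergic neurons had a median of 759.7 CPM (151 to 1548) and PVALB cells of 510.0 CPM (229 to 1938). SST cells had a median of 374 CPM (172 to 1312) and OPCs of 226 CPM (112 to 331). Neighbours in this order overlapped. The highest value of each neuronal class came from WT hippocampus replicate 2, and without it the highest values were 1169 CPM in NGFC cells, 808 in glutamatergic neurons, 672 in PVALB cells and 467 in SST cells. Committed precursors (median 43.1 CPM) and oligodendrocytes (18.0 CPM, 7.29 to 42.9, or at most 24.7 without that library) lay below every interneuron library.

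Epha6 was a neuronal gene in these cells, at low counts. Its median was 16.1 CPM in NGFC cells (0 to 50.6), 8.06 in glutamatergic neurons (0 to 107, the latter from 2 UMIs), 7.70 in SST cells (1.14 to 48.4) and 3.96 in PVALB cells (0 to 17.8). Neighbouring classes overlapped, and the highest value in all 4 classes came from WT hippocampus replicate 2. Without that library the highest values were 23.8 CPM in NGFC cells, 21.1 in glutamatergic neurons, 11.2 in SST cells and 9.48 in PVALB cells.

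Epha7, another ephrin-A receptor, was neuronal too. It was highest in glutamatergic neurons, with 56.9 to 107 CPM and a median of 69.2, which did not overlap the next class. PVALB cells had 21.0, 39.7 and 47.1 CPM as lowest, median and highest, NGFC cells 15.3, 29.9 and 44.0 CPM, and SST cells 17.9, 24.7 and 40.4 CPM, and these 3 ranges overlapped. Glial classes had medians below 1 CPM.

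Ephb1, a B-class receptor, had its highest level outside the neurons. Oligodendrocytes had 156 to 251 CPM with a median of 235, above every other class in every WT library. Committed precursors (14.4, 77.4 and 118 CPM) and astrocytes (0, 51.5 and 78.6 CPM) followed and overlapped. OPCs had a median of 17.2 CPM, glutamatergic neurons 12.0 and PVALB cells 10.8 (0 to 22.4). SST cells had 8.26 CPM (6.05 to 18.8) and NGFC cells 3.23 CPM (0 to 23.9), and all these neighbours overlapped. Without WT hippocampus replicate 2 the highest values were 11.9 CPM in SST cells and 12.2 in NGFC cells, and glutamatergic neurons had at least 9.89.

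Ephb2, the B-class receptor known from excitatory synapses, was low throughout, with a median of 14.2 CPM in OPCs (0 to 26.2) and 10.7 in glutamatergic neurons (2.47 to 53.4, the latter from 1 UMI in WT hippocampus replicate 2, and at most 26.9 without it). In NGFC cells it ran from 2.38 to 9.34 CPM (median 9.11), in SST cells from 5.73 to 14.6 CPM (median 8.91) and in PVALB cells from 0.914 to 6.2 CPM (median 4.02). These classes overlapped, whereas oligodendrocytes (0.153 to 0.871 CPM) lay below every PVALB library. The lowest PVALB value rests on 1 UMI, in WT cortex replicate 1.

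Both A-class ligands were neuronal. Efna3 had a median of 49.0 CPM in glutamatergic neurons (0 to 98.9), 31.5 in SST cells (16.3 to 53.4), 22.5 in NGFC cells (5.52 to 34.9) and 20.6 in PVALB cells (12.4 to 25.6). Neighbouring neuronal classes overlapped, and OPCs, the next class, lay below PVALB cells at 0 to 3.74 CPM. Without WT hippocampus replicate 2 the lowest Efna3 values were 40.3 CPM in glutamatergic neurons, 26.8 in SST cells, 19.9 in NGFC cells and 17.7 in PVALB cells. Efna5 had a median of 59.6 CPM in SST cells (36.2 to 162), 42.7 in NGFC cells (19.9 to 242), 41.4 in PVALB cells (17.8 to 61.3) and 25.1 in glutamatergic neurons (0 to 119). Its neuronal ranges overlapped, and oligodendrocytes were at 0 to 2.19 CPM. Without that library the lowest Efna5 values were 40.3 CPM in PVALB cells and 11.5 in glutamatergic neurons.

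Efnb3 encodes ephrin-B3, known as a repellent for axons at the midline and as a ligand present in myelin. Oligodendrocytes had 314 to 536 CPM with a median of 424, which no other class reached in any WT library. Neurons carried it as well. PVALB cells had a median of 64.2 CPM (33.7 to 105), glutamatergic neurons 62.1 (4.95 to 160.2), SST cells 55.4 (43.0 to 105) and NGFC cells 47.6 (26.1 to 89.3), all overlapping. Committed precursors, which sit between OPCs and oligodendrocytes, had a median of 8.89 CPM (0 to 20.9, or at most 11.4 without WT hippocampus replicate 2), and OPCs 30.1 CPM (6.39 to 61.0).

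**Figure D1:**
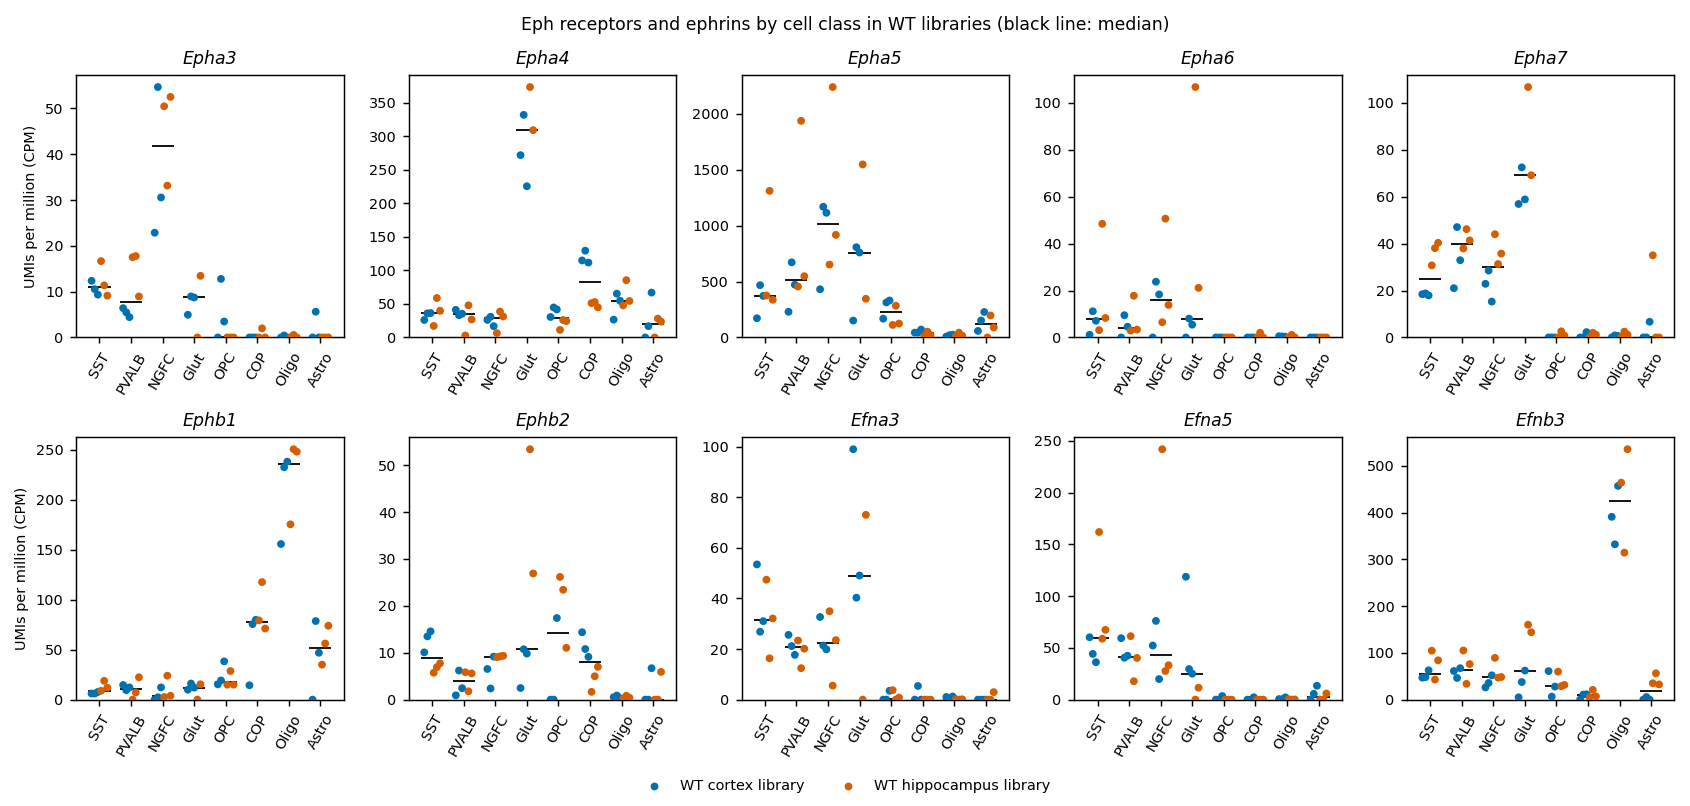
Level of each of the 10 genes (vertical axis, CPM) in the summed cells of 8 classes (horizontal axis), with a point for each WT library, blue for cortex and orange for hippocampus, and a black line at the median. Ephb1 and Efnb3 were highest in oligodendrocytes (medians 235 and 424 CPM), Epha4 and Epha7 in glutamatergic neurons (309 and 69.2 CPM) and Epha3 in NGFC cells (41.8 CPM).

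The order of a pair of interneuron classes could also be read within each library. PVALB cells had more Epha5 and Epha7 than SST cells in all 6 WT libraries, and SST cells had more Epha6 and Efna3 in all 6. These were 4 of the 10 genes, and among all 10415 genes at a mean of at least 5 CPM, 26.8% kept a direction in every WT library. NGFC cells had more Epha3 and Epha5 than SST cells, and less Efna3, in all 6 libraries (3 of the 10 genes, against 28.8% of 10452 genes). NGFC cells also had more Epha3 and Epha5 than PVALB cells in all 6 (2 of the 10, against 25.9% of 10396 genes). The counts lay near the shares for all genes. Over libraries, Epha3 was the gene of the 10 whose ranges did not overlap, in NGFC cells against SST cells and against PVALB cells. The share of all genes without such overlap was not counted, so whether this is unusual is not known.

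Within the classes, clusters differed widely in the pooled WT cells. Epha5 reached 2096 CPM (2016 to 2178) in NGFC cluster 17, of which most cells came from WT hippocampus replicate 2, and 1686 CPM (1617 to 1756) in PVALB cluster 24, named from the Pthlh list of chandelier-like cells. Without that library the values were 1152 CPM (999 to 1323) and 1367 CPM (1299.6 to 1437). The other NGFC cluster had 889 CPM, the main PVALB cluster 426 CPM, and SST cluster 10, named from the TH list, 134 CPM (123 to 146). In WT cortex, cluster 17 (13 cells) had 623 CPM (417 to 894), below the 993 CPM of cluster 3, so the order of the NGFC clusters differed by region. The Pthlh cluster was above the main PVALB cluster with and without the library.

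Epha4 was concentrated in a small PVALB cluster. Cluster 32, named from the Crabp1 list, had 644 CPM (561 to 735), against 37.6 CPM (28.0 to 49.4) in the Pthlh cluster and 14.4 CPM (12.2 to 16.9) in the main PVALB cluster 2. Among SST clusters it ran from 5.94 CPM in cluster 26 to 66.8 CPM (59.3 to 74.9) in cluster 14. The order depended on the region: cluster 14 had 76.6 CPM in the cortex and 16.8 CPM in the hippocampus, and cluster 4 had 46.5 and 76.8 CPM. The Crabp1 cluster also had more Epha7 (67.9 CPM) and Efna5 (124 CPM) than the main cluster (38.8 and 44.2 CPM) and the Pthlh cluster (10.3 and 11.05 CPM).

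Other members differed among clusters at lower counts. Ephb1 was at 26.1 CPM (21.4 to 31.5) in SST cluster 10 and 1.04 CPM (0.518 to 1.85) in SST cluster 1. Ephb2 went the other way in this pair, with 5.37 CPM in cluster 10 and 13.9 CPM in cluster 1. Epha3 was at 20.3 CPM in the SST cluster named from the Chodl list and 3.70 CPM in SST cluster 14. The clusters were made from the same cells, with the 22 family genes left out of the clustering features, so these differences are a description and were given no test.

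Oligodendrocyte RNA in interneuron sums bears on Ephb1 and Efnb3, and the levels can be set beside myelin genes. Pooled WT SST cells had 3.78% (3.35 to 4.25) of the oligodendrocytes' Ephb1 level and 13.7% (13.1 to 14.3) of their Efnb3 level, against 0.997% for Mbp and 0.714% for Mag. PVALB cells had 5.45% of the Ephb1 level, 14.0% of the Efnb3 level and 0.786% of the Mbp level. NGFC cells had 3.52% (2.60 to 4.65) for Ephb1 and 11.6% for Efnb3, with 2.21% for Mbp and 1.88% for Mag. Most of the Ephb1 UMIs of NGFC cells came from WT hippocampus replicate 2. Without that library NGFC cells had 2.04% (1.29 to 3.06) for Ephb1 and 11.2% for Efnb3. Mbp was at 1.48% (1.40 to 1.56), which overlapped Ephb1, and Mag at 1.02% (0.919 to 1.13), which did not. SST cells then had 3.56% for Ephb1 and 0.796% for Mbp, and PVALB cells 5.70% and 0.659%. Cells marked by Scrublet as possible doublets held more Ephb1 than their number: in SST cells, 33 of 181 Ephb1 UMIs in WT cortex came from 29 of 3407 cells, 6 of 61 in null cortex from 11 of 835, 11 of 98 in WT hippocampus from 15 of 1475, and 27 of 61 in null hippocampus from 24 of 928. In PVALB cells the marked cells held 7 of 122 Ephb1 UMIs in WT cortex (4 of 1326 cells). They held 7 of 24 in WT hippocampus (3 of 314) and 0 of 8 in null cortex (0 of 280). In null hippocampus they held 12 of 26 (5 of 318). Marked NGFC cells held 6 of 9 in WT cortex (6 of 295) and 7 of 40 in WT hippocampus (11 of 1041). In null NGFC cells it was 0 of 3 in cortex (1 of 97) and 16 of 36 in hippocampus (19 of 735). WT hippocampus replicate 2 had 0 marked NGFC cells, so these WT UMIs remain without that library. The part of oligodendrocyte RNA in these levels was not tested. Along the oligodendrocyte lineage the pair differed: committed precursors had 38.3% of the Ephb1 level and 2.41% of the Efnb3 level, and OPCs had 9.18% and 7.40%.

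The comparison of WT hippocampus with WT cortex asks how interneurons of a class differ between the regions they settle in. In SST cells, Epha7 was higher and Ephb2 lower in each hippocampal library than in any cortical library. Epha7 had 18.4, 18.8 and 17.9 CPM in the cortical libraries and 30.7, 38.1 and 40.4 CPM in the hippocampal libraries. The groups did not overlap, and the log2 difference was 0.93 (SE 0.22), with an adjusted p of 0.165 by edgeR. Ephb2 had 10.1, 13.5 and 14.6 CPM in the cortex and 5.73, 6.92 and 7.74 CPM in the hippocampus, again without overlap, with a log2 difference of -0.95 (SE 0.29) and an adjusted p of 0.313.

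The ligands Efna5 and Efnb3 had wider spread in SST cells. Efna5 had 60.3, 44.2 and 36.2 CPM in the cortex and 162, 58.8 and 67.4 CPM in the hippocampus, where replicate 1 was far above the rest. Replicate 2 of hippocampus lay just below replicate 1 of cortex, so the groups overlapped. Within each replicate number the hippocampus was higher, and the log2 difference was 0.97 (SE 0.40), or 0.37 (without replicate 1 of hippocampus) to 1.21 with a library left out. Efnb3 had 47.0, 48.1 and 62.7 CPM in the cortex and 105, 43.0 and 84.0 CPM in the hippocampus, overlapping through replicate 2, with a log2 difference of 0.49 (SE 0.32), or 0.21 (without replicate 1 of hippocampus) to 0.75 (without replicate 2) with a library left out. Ephb1 had 6.08, 6.05 and 7.66 CPM against 8.85, 18.8 and 11.9 CPM, without overlap (0.93, SE 0.35), and its log2 difference was 0.57 without the library that stood apart.

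Other receptors in SST cells turned on that same library. Epha5 had 172, 467 and 372 CPM in the cortex and 375, 1312 and 337 CPM in the hippocampus. Epha6 had 1.14, 11.2 and 7.11 CPM in the cortex and 3.13, 48.4 and 8.29 CPM in the hippocampus. For both, replicate 2 of hippocampus was far above all others and the remaining libraries overlapped. The other genes, Epha3, Epha4 and Efna3, overlapped between the regions.

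By the edgeR quasi-likelihood test, with thresholds of adjusted p 0.01 and a log2 change of 0.1443, 0 of the 10 genes passed between the regions in SST cells, where 5 of 11970 genes passed (0.0418%). At an unadjusted p under 0.05 there were 4 (Epha7, Ephb2, Ephb1 and Efna5), against 7.55% of all genes. DESeq2 called 0 members in any of the 14 comparisons made here. The median log2 difference of the 10 genes was 0.71, beside 0.02 over all genes tested, and 8 of the 10 were positive. Without replicate 2 of WT hippocampus the median of the 10 was 0.07, beside -0.01 over all genes tested, and 7 were positive. The share of positive differences over all genes was not counted.

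Replicate numbers were taken to pair the WT libraries of the regions, so the comparison was also fitted with the number as a block. With the block, SST cells had 0 members past the thresholds, against 2.78% of all genes. At an adjusted p of 0.05, a setting chosen after the data were seen, 3 members passed against 5.14% of all genes. Epha7 rose in the hippocampus by 0.93 (log2, SE 0.21, adjusted p 0.0136), Efna5 rose by 0.87 (SE 0.20, adjusted p 0.0177) and Ephb2 fell by 0.96 (SE 0.27, adjusted p 0.0499). Without replicate 2 of WT hippocampus, the same setting called these 3 genes and Efnb3, 4 members against 9.64% of all genes. Efna5 was then at 1.06 (adjusted p 4.58e-07), Efnb3 at 0.66 (0.00549), Epha7 at 0.89 (0.0024) and Ephb2 at -0.98 (0.0215). In that fit the regions were paired in replicates 1 and 3 only, so these values rest on very few libraries. Over all the alternatives the adjusted p ran from 0.0024 to 0.665 for Epha7, from 4.58e-07 to 1 for Efna5, from 0.0215 to 1 for Ephb2 and from 0.00549 to 1 for Efnb3.

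Cluster 9 held 39.1% of WT hippocampal SST cells, of which 522 of 577 came from replicate 2, and 8.53% without that library, beside 8.86% in WT cortex. Cluster 9 was low in UMIs, at 0.504 of the library median, and 1019 of its 1050 cells had no class name when clustered at resolution 0.6. With that clustering the regional log2 difference in SST cells was 1.01 (SE 0.23) for Epha7, -1.04 (SE 0.30) for Ephb2 and 0.87 (SE 0.41) for Efna5. Cluster 1 held 33.2% of the cortical SST cells and, without replicate 2, 23.3% of the hippocampal ones. Epha7 was higher in the hippocampus in some clusters and not detectably so in others. In cluster 1 it had 36.9 CPM (28.9 to 46.4) in the hippocampus and 18.3 CPM (15.6 to 21.4) in the cortex, and in cluster 4 it had 51.3 CPM (42.7 to 61.2) and 20.7 CPM (17.1 to 24.8). In cluster 9 it had 30.2 CPM (19.9 to 43.9) and 28.4 CPM (14.7 to 49.6), and in cluster 23 it had 8.09 CPM (0.205 to 45.1, from 1 UMI) and 11.1 CPM (7.57 to 15.8). The intervals of clusters 10, 14 and 26 also overlapped between regions. Efna5 differed in the same direction in cluster 4, with 137 CPM (122 to 153) against 35.1 CPM (30.4 to 40.4). In cluster 10, named from the TH list, Efna5 went the other way, with 24.5 CPM (15.7 to 36.4) in the hippocampus and 53.5 CPM (45.7 to 62.3) in the cortex. Ephb2 in cluster 4 was at 5.01 CPM (2.59 to 8.75) in the hippocampus and 16.0 CPM (12.9 to 19.7) in the cortex. These intervals hold counting error and no spread between libraries.

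**Figure D2:**
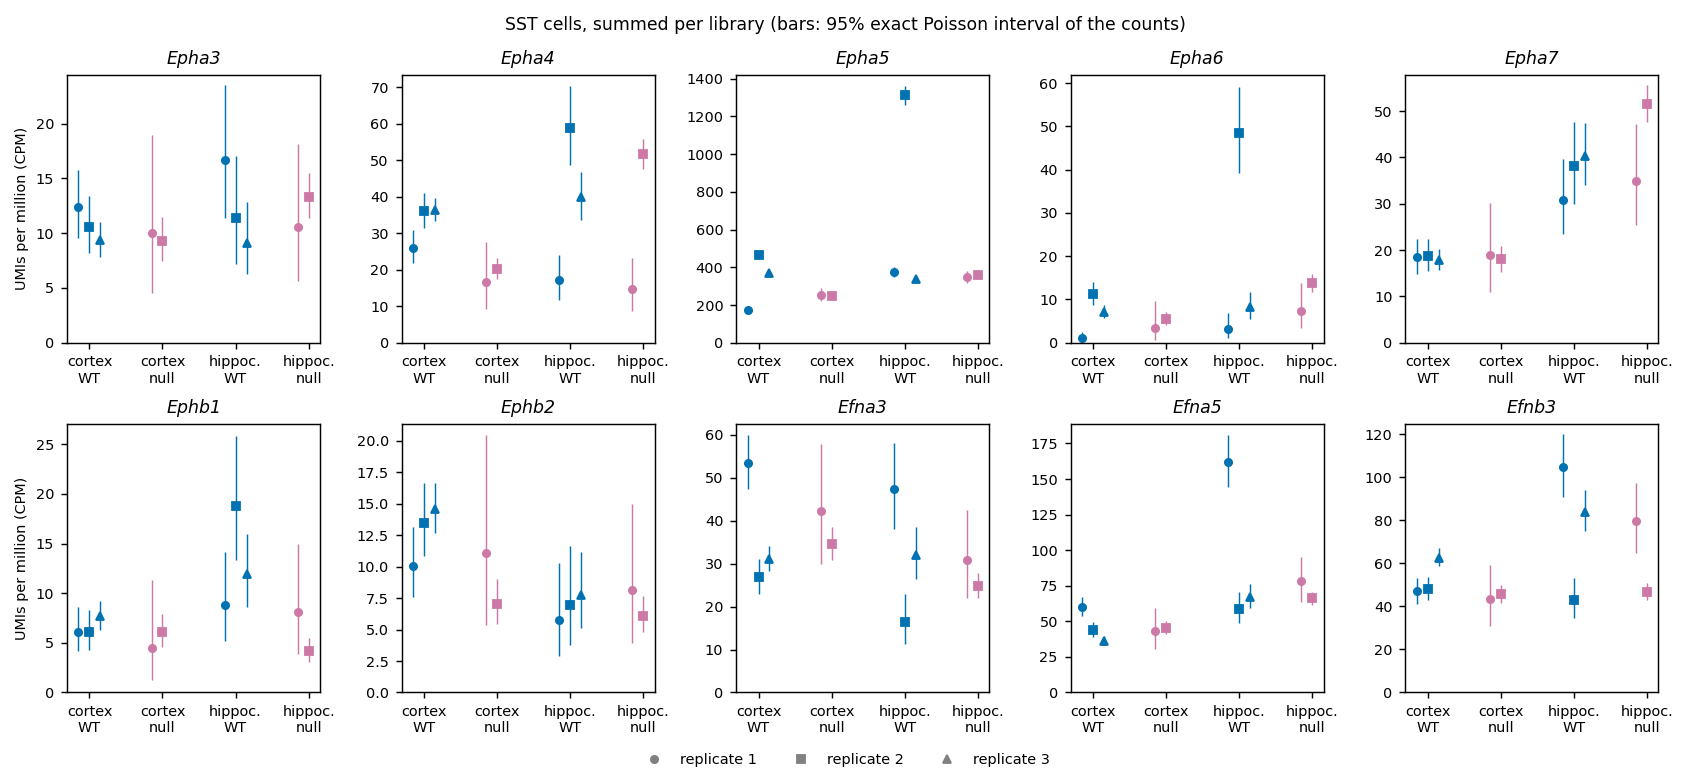
Level of each of the 10 genes (vertical axis, CPM) in SST cells of each library, by region and genotype (horizontal axis), with bars for 95% exact Poisson intervals and point shapes for the replicate number, blue for WT and pink for null. Epha7 lay at 17.9 to 18.9 CPM in all 5 cortical libraries and at 30.7 to 51.5 CPM in all 5 hippocampal libraries.

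The regional shift of Epha7 in SST cells was seen in both genotypes. Null libraries had 18.9 and 18.0 CPM in the cortex and 35.01 and 51.5 CPM in the hippocampus. The difference between genotypes in that shift was 0.26 on the log2 scale (SE 0.37), and ran from 0.019 (without null hippocampus replicate 2) to 0.50 (without replicate 1 of that group) with a library left out. Efna5 in null SST cells was at 43.3 and 45.4 CPM in the cortex and 78.2 and 66.2 CPM in the hippocampus, also without overlap.

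In PVALB cells, 7 of the 10 genes had counts enough to be tested between regions, and 0 passed the thresholds, where 3 of 8853 genes did (0.0339%). None of the 7 reached an unadjusted p under 0.05 by edgeR (4.31% of all genes did), and DESeq2 gave 1. Epha5 had the largest difference: 229, 672 and 472 CPM in the cortex and 455, 1938 and 548 CPM in the hippocampus, overlapping but higher in the hippocampus within each replicate number. The log2 difference was 1.14 (SE 0.55), and 0.12 without replicate 2 of hippocampus. The Pthlh cluster, which was high in Epha5, held 10.7, 13.2 and 4.63% of PVALB cells in the WT cortex libraries and 28.8, 44.4 and 13.4% in the WT hippocampus libraries. With the Pthlh and Crabp1 clusters left out, the log2 difference of Epha5 was 0.71 (SE 0.47). The part of the make-up in the Epha5 difference was not tested. With the block, 0 members passed the thresholds (0.825% of all genes). At adjusted p 0.05 there was 1 (1.89% of all genes), Epha5, at 0.92 (SE 0.22, adjusted p 0.0294). Without replicate 2 of WT hippocampus this setting called 0 of the members and 3.39% of all genes, and Epha5 was at 0.51 (SE 0.17, adjusted p 0.116; over all alternatives 0.0294 to 1). Epha7 in PVALB cells was at 21.0, 47.1 and 32.9 CPM in the cortex and 37.9, 46.2 and 41.4 CPM in the hippocampus, with overlap.

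NGFC cells allowed a test of 8 of the genes between regions, and 0 passed by edgeR, as did 0 of 7850 genes (0%). At an unadjusted p under 0.05 there were 0, against 2.61% of all genes. With the block 0 members passed (0.0637% of all genes), at adjusted p 0.05 again 0 (0.242%), and without replicate 2 of hippocampus 0 (0.0748%). Efna5 showed the widest spread: 52.3, 76.0 and 19.9 CPM in the cortex and 242, 27.6 and 33.2 CPM in the hippocampus. Epha7 was at 22.9, 28.5 and 15.3 CPM in the cortex and 44.0, 31.3 and 35.8 CPM in the hippocampus, which did not overlap, with a log2 difference of 0.79 (SE 0.38). Cluster 17 held 53.4% of WT hippocampal NGFC cells, with 516 of the 520 NGFC cells of replicate 2, and 7.68% without that library. Its part in these values was not tested.

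The genotype comparisons ask what changes in interneurons that lack NMDA receptors from early on, and Grin1 itself served as the check. Grin1 in SST cells was at 153, 253 and 233 CPM in WT cortex against 36.7 and 27.9 CPM in null cortex, and at 119.8, 174 and 158 CPM in WT hippocampus against 23.6 and 21.8 CPM in null hippocampus. The genotypes did not overlap. Which exons the floxed allele removes, relative to the counted 3′ tags, is not given in the sources used, so the remaining counts cannot be read as functional transcript. Averaged over regions, Grin1 fell by 2.73 (log2, SE 0.23, adjusted p 0.000771) in SST cells and fell by 2.69 (SE 0.30, adjusted p 0.00269) in PVALB cells, in all libraries. In NGFC cells the averaged change was -2.30 (SE 0.34, adjusted p 0.164) and did not pass. Within a region Grin1 did not pass by edgeR in any class: the log2 change was -2.73 in SST cells of the cortex (adjusted p 0.0318) and -2.73 in those of the hippocampus (0.0329), -2.52 (0.0387) and -2.86 (0.0847) in PVALB cells, and -2.09 (1) and -2.50 (0.422) in NGFC cells. Those tests thus did not call the deleted gene, and the edgeR counts of 0 members there are to be read beside that. DESeq2 called Grin1 within a region in SST cells (adjusted p 2.46e-12 in the cortex and 4.47e-12 in the hippocampus), in PVALB cells (1.49e-05 and 1.15e-06) and in NGFC cells of the hippocampus (8.73e-06), but not in NGFC cells of the cortex (0.689). The edgeR call of the averaged change in SST cells missed the threshold without null cortex replicate 2, null hippocampus replicate 1 or null hippocampus replicate 2. Each of these fits left 1 library in a group. With a library left out that change ran from -2.829 to -2.615. In PVALB cells the averaged change missed by edgeR without WT cortex replicate 3 (adjusted p 0.0129) or WT hippocampus replicate 3 (0.0117). It also missed without null cortex replicate 2, null hippocampus replicate 1 or null hippocampus replicate 2, which left 1 library in a group. With a library left out it ran from -2.855 to -2.375.

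No member of the family passed the thresholds between genotypes in SST cells, by edgeR or DESeq2. All 10 were tested. In the cortex, 0 of them and 0% of 12844 genes passed, with 0 members and 2.16% of genes at an unadjusted p under 0.05. In the hippocampus, 0 members and 0% of genes passed, with 1 member (Ephb1) and 3.73% of genes at an unadjusted p under 0.05. Averaged over regions, 0 members passed against 0.00779% of genes (Grin1 alone), and 1 member (Ephb1 again) against 6.11% had an unadjusted p under 0.05. The test of whether the genotype difference itself differed between regions gave 0 members and 0% of genes, with 0 members and 0.514% of genes at an unadjusted p under 0.05. DESeq2 had the same 0, 1, 1 and 0 members at an unadjusted p under 0.05. The median log2 change of the 10 was -0.28 averaged over regions, beside -0.02 for all genes, and 1 of the 10 (Epha7) was positive. The share of positive changes over all genes was not counted, so the count of signs has no background. The average includes Epha5 in the hippocampus, at -0.94, or 0.03 without WT hippocampus replicate 2.

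Among the individual genes in SST cells, Epha4 was lower in null cortex, with 16.7 and 20.1 CPM against 26.0, 36.0 and 36.4 CPM in WT, and these did not overlap. In the hippocampus it was at 14.7 and 51.6 CPM in null and 17.2, 58.8 and 39.8 CPM in WT, overlapping. In both genotypes there, replicate 1 was the lowest. Within replicate numbers 1 and 2, null was lower than WT in each region. Its log2 change in the cortex was -0.78 (SE 0.52). Most null cortex SST cells (725 of 835) came from replicate 2, and the make-up of the class differed between the null libraries. Cluster 1 held 11.2, 30.7 and 43.5% of SST cells in the WT cortex libraries and 30.9 and 17.8% in the null ones, and cluster 4 held 13.3, 22.9 and 19.6% against 18.2 and 12.1%. Cluster 10 held 15.9, 12.3 and 13.1% against 9.09 and 25.1%, and cluster 23 held 5.29, 11.4 and 3.73% against 2.73 and 20.4%. In clusters 10 and 23 the null libraries thus lay on opposite sides of the WT range. Cluster 9 held 1.76, 13.8 and 8.02% against 21.8 and 11.4%. Cluster 26, the lowest in Epha4, held 35.9, 0.767 and 0.497% against 8.18 and 0.276%. Pooled Epha4 in WT and null cortex was 21.5 and 6.26 CPM in cluster 1, 46.5 and 38.5 in cluster 4, 17.6 and 8.25 in cluster 10, 76.6 and 16.3 in cluster 14, and 30.2 and 33.0 in cluster 23. In the hippocampus, cluster 9 held 39.1% of WT (8.53% without replicate 2) and 6.90% of null SST cells. The part of this make-up in the SST values was not tested.

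Ephb1 in SST cells was at 8.14 and 4.14 CPM in null hippocampus and 8.85, 18.8 and 11.9 CPM in WT, without overlap, with a log2 change of -1.28 (SE 0.45, adjusted p 0.970) that ran from -1.67 to -0.61 (the latter without null replicate 2) with a library left out. With the cells marked by Scrublet removed, which held 27 of the 61 Ephb1 UMIs of null hippocampal SST cells, the levels were 2.57 and 2.59 CPM in null and 7.52, 18.8 and 9.98 CPM in WT. The log2 change was then -2.21 (SE 0.48, adjusted p 0.965). Marked cells were 7 of 297, 1 of 830 and 7 of 348 in WT, and 4 of 101 and 20 of 827 in null. Removal thus acted unevenly, and left replicate 2 of WT, the library highest in Ephb1, almost untouched. Epha5, at 349 and 359 CPM in null hippocampus, lay within the WT range of 337 to 1312 CPM, and its log2 change was -0.94 (SE 0.57), or 0.03 without WT replicate 2. Efna3, at 42.2 and 34.6 CPM in null cortex and 30.9 and 24.8 CPM in null hippocampus, overlapped WT in both regions. Epha3 was at 9.31 to 13.3 CPM in the 4 null libraries and 9.12 to 16.7 CPM in the 6 WT libraries.

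In PVALB cells of the cortex, Epha4 had the smallest unadjusted p of the 10 genes in any genotype comparison (0.000698 by edgeR). Its level was 41.1, 33.2 and 35.4 CPM in WT cortex and 115 and 155 CPM in null cortex. Both null libraries lay far above every WT library. In the hippocampus the levels were 2.92, 48.0 and 26.8 CPM in WT (1, 27 and 24 UMIs). They were 17.8 and 41.0 CPM in null (8 and 181 UMIs), which overlapped WT. The log2 change in the cortex was 1.93 (SE 0.45) with an adjusted p of 0.189, so it did not pass. With no filter on low counts it was 1.89 (SE 0.34, adjusted p 2.58e-05), and with the cortical groups fitted alone it was 1.93 (SE 0.28, adjusted p 0.0097), both past the thresholds. Over all alternatives the adjusted p ran from 2.58e-05 to 1.

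The make-up of the PVALB class also differed between the genotypes in the cortex, and its part in the Epha4 difference was not tested. The Crabp1 cluster, which had the highest Epha4 level, held 7.14, 1.93 and 2.69% of PVALB cells in the WT cortex libraries and 22.2 and 22.9% in the null cortex libraries. In the hippocampus it held 1.27% of WT and 2.83% of null PVALB cells. Inside that cluster Epha4 was at 501, 1111 and 665 CPM in WT cortex and at 351 CPM (from 6 cells) and 587 CPM in null cortex, so no null value lay above the WT range. In the main PVALB cluster WT cortex had 11.8, 8.80 and 14.5 CPM and null cortex had 38.7 and 9.88 CPM. With the Pthlh and Crabp1 clusters left out, an alternative chosen after the data were seen, the log2 change in the cortex was 0.45 (SE 0.73, adjusted p 1), and averaged over regions it was -0.024 (SE 0.50) in place of 1.07 (SE 0.34). The latter ran from 0.67 (without null hippocampus replicate 2) to 1.39 (without WT hippocampus replicate 2) with a library left out.

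**Figure D3:**
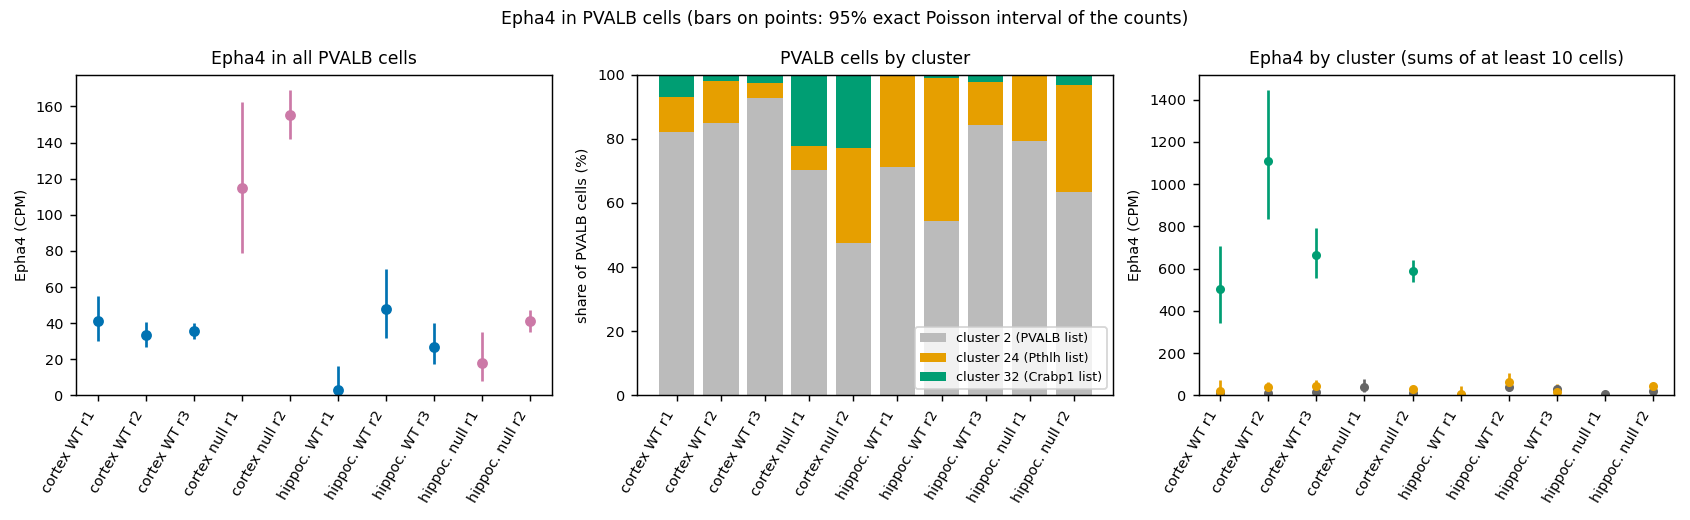
Epha4 in PVALB cells of each library (left, vertical axis CPM, bars for 95% exact Poisson intervals), the share of PVALB cells in each cluster (middle, percent) and Epha4 in each cluster where at least 10 cells were summed (right, CPM). Epha4 was at 115 and 155 CPM in the null cortex libraries, where the Crabp1 cluster held 22.2 and 22.9% of the cells, and that cluster had 501 to 1111 CPM in WT cortex and 587 CPM in null cortex replicate 2.

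Ephb1 in PVALB cells was lower in null cortex. It was at 14.6, 9.48 and 12.2 CPM in WT cortex (16, 26 and 80 UMIs) and 3.59 and 2.1 CPM in null cortex (1 and 7 UMIs), without overlap. WT hippocampus had 0, 7.10 and 22.4 CPM and null hippocampus 2.22 and 5.66 CPM, overlapping. The 0 came from a sum in which 3 UMIs would be 8.76 CPM, so a level of that size was not detectable there. The hippocampal log2 change was -1.29 (SE 0.74), and 0.16 without WT replicate 3, so its direction rested on that library. The log2 change was -2.37 (SE 0.83, adjusted p 0.864) in the cortex and -1.83 (SE 0.56, adjusted p 0.520) averaged over regions, and neither passed. The latter ran from -2.35 (without null hippocampus replicate 2) to -1.10 (without WT hippocampus replicate 3) with a library left out. The main cluster, which had more Ephb1 than the other PVALB clusters, held 88.5% of WT and 49.6% of null PVALB cells in the cortex. Within it Ephb1 was at 17.2, 10.996 and 13.3 CPM in WT cortex and 4.84 and 3.09 CPM in null cortex (1 and 5 UMIs). With the Pthlh and Crabp1 clusters left out, the log2 change was -1.995 (SE 0.86) in the cortex and -1.60 (SE 0.58) averaged over regions. The oligodendrocyte marker sum of PVALB cells was 57.5 and 166 CPM in null cortex against 88.6, 268 and 146 in WT cortex. In the hippocampus it was 400 and 238 CPM in null against 499, 686 and 697 in WT, without overlap. Its part in the Ephb1 change was not tested. Epha3 was at 10.8 and 11.4 CPM in null cortex (3 and 38 UMIs) and 6.40, 5.47 and 4.42 CPM in WT cortex (7, 15 and 29 UMIs). These did not overlap, though the first null value rests on very few counts. In the hippocampus Epha3 was at 2.22 and 10.9 CPM in null (1 and 48 UMIs) and 17.5, 17.8 and 8.95 CPM in WT (6, 10 and 8 UMIs). Within the main PVALB cluster of the cortex, Epha3 was at 5.38, 3.52 and 4.16 CPM in WT and at 0 (interval up to 17.8) and 2.47 CPM in null. The Crabp1 cluster had 43.8 CPM (from 3 UMIs) and 28.5 CPM in null cortex. The part of the make-up in the Ephb1 and Epha3 differences was not tested.

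Among ligands in PVALB cells, Efna5 was higher in null cortex, at 79.0 and 62.0 CPM against 59.4, 40.5 and 42.4 CPM in WT, without overlap, with a log2 change of 0.56 (SE 0.40). The Crabp1 cluster, which was high in Efna5, made up more of the null cells, as given above. The Pthlh cluster, low in Efna5, held 10.7, 13.2 and 4.63% of PVALB cells in WT cortex and 7.41 and 29.6% in null cortex. With the Pthlh and Crabp1 clusters left out, the log2 change of Efna5 was 0.047 (SE 0.48). The part of the make-up in the Efna5 difference was not tested. Within the main cluster the levels were 58.1, 44.0 and 42.1 CPM in WT cortex and 82.2 and 33.4 CPM in null cortex, overlapping. In the hippocampus it was at 66.7 and 39.2 CPM in null and 61.3, 17.8 and 40.3 CPM in WT, overlapping. Efnb3 overlapped between genotypes in both regions, with 50.3 and 48.0 CPM in null cortex inside the WT range of 46.3 to 67.2 CPM.

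Of the 10 genes, 8 were tested between genotypes in PVALB cells, and Epha6 and Ephb2 had too few counts. In the cortex 0 members and 0% of 9741 genes passed by edgeR, with 2 members (Epha4 and Ephb1) and 3.65% of genes at an unadjusted p under 0.05. In the hippocampus 0 members and 0% passed, with 0 members and 3.2% at an unadjusted p under 0.05. Averaged over regions 0 members passed against 0.0103% of genes (Grin1 alone), with 2 members (the same pair) and 7.17% at an unadjusted p under 0.05. For the difference between regions, 0 members and 0% passed, and 2 members (Epha4 at -1.73, SE 0.70, and Epha3 at -1.82, SE 0.76) and 1.11% of genes had an unadjusted p under 0.05. With a library left out, Epha4 ran from -2.53 (without null hippocampus replicate 2) to -1.10 (without WT hippocampus replicate 2), and Epha3 from -3.67 (without null hippocampus replicate 2) to -1.50 (without null hippocampus replicate 1). Some of the sums behind both genes held very few UMIs, as given above. DESeq2 called 0 members in each, and had 2, 0, 2 and 1 at an unadjusted p under 0.05.

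In NGFC cells, 9 of the genes were tested between genotypes and 0 passed. Cortex (1 null library) had 0% of 9719 genes past the thresholds and 1.42% at an unadjusted p under 0.05. That lone library was taken to vary like the libraries of the other groups, so its own spread is not known and the 0 says little. Hippocampus had 0% and 3.17%, and the average over regions had 0% and 4.33%. The members had 0 at an unadjusted p under 0.05 in all 3, by edgeR and by DESeq2. Epha3, which was highest in this class in WT cells, was at 46.3 CPM in null cortex and at 30.5 and 46.0 CPM in null hippocampus, inside the WT ranges of 22.9 to 54.7 CPM and 33.1 to 52.5 CPM except for the lower hippocampal library. Epha5 was at 604 CPM in null cortex and at 711 and 665 CPM in null hippocampus, inside the WT ranges of 431 to 1169 CPM and 652 to 2240.3 CPM. Epha6 in the hippocampus had a log2 change of -1.39 (SE 0.82), or -2.45 (without null replicate 2) to -0.24 (without WT replicate 2) with a library left out, with 4.16 and 11.6 CPM in null and 6.47, 50.6 and 13.9 CPM in WT. Cluster 17 held 53.4% of WT (7.68% without replicate 2) and 4.22% of null hippocampal NGFC cells, and its part in these values was not tested.

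The family's other 12 genes differed in the classes that carried them. In pooled WT cells, 9 of them reached 20 CPM in a named class, and Epha1, Epha2 and Epha8 did not. Epha10 was at 45.0 CPM in SST cells, 29.9 in PVALB cells and 20.5 in NGFC cells, and Ephb6, a receptor without kinase activity, was at 55.7 CPM in SST cells, 38.5 in glutamatergic neurons and 34.9 in PVALB cells. Efnb2 was at 91.7 CPM in glutamatergic neurons and 91.4 in endothelial cells, the class it is known from in arteries. Ephb4, its venous receptor, was at 24.4 CPM (6.64 to 62.4, from 4 UMIs) in endothelial cells, beside Efna1 at 54.9 CPM (9 UMIs) and Efna4 at 30.5 CPM (5 UMIs). Efnb1 was at 24.2 CPM (8.88 to 52.7, from 6 UMIs) in microglia and 10.7 CPM in glutamatergic neurons, and Ephb3 at 24.3 CPM (14.6 to 38.0) in astrocytes and 17.4 CPM in glutamatergic neurons. Efna2 was spread over classes, with 28.8 CPM in OPCs (22.5 to 36.4) and in glutamatergic neurons (23.0 to 35.6), 25.8 in oligodendrocytes and 24.3 in astrocytes. Of these, 6 were tested in SST cells, 5 in PVALB cells (3 between regions) and 4 in NGFC cells (2 between regions), and 0 passed in any comparison by edgeR or DESeq2. At an unadjusted p under 0.05 there were 3 between regions in SST cells (beside 7.55% of all genes), 1 between regions in PVALB cells (4.31%), and 1 each between genotypes in PVALB cells of the cortex (3.65%) and averaged over regions (7.17%).

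A list of 38 genes of Eph and ephrin signalling, from exchange factors and kinases of the forward pathway to proteases and adaptors of the ligands, was tested alongside. In SST cells 38 were tested, in PVALB cells 36 and in NGFC cells 36 (32 between regions), and 0 passed in any of the 14 comparisons by edgeR or DESeq2. Between WT regions, unadjusted p was under 0.05 for 6 in SST cells, 1 in PVALB cells and 2 in NGFC cells, beside 7.55%, 4.31% and 2.61% of all genes. Between genotypes averaged over regions, it was so for 0 in SST cells, 4 in PVALB cells and 3 in NGFC cells, beside 6.11%, 7.17% and 4.33% of all genes.

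With the block and adjusted p 0.05, 5 of the 38 passed between regions in SST cells, beside 5.14% of all genes, and they are named here after their values were seen. The kinase Fyn, which acts below several Eph receptors, rose in the hippocampus by 0.80 (log2, SE 0.21, adjusted p 0.0345), from 50.2, 68.2 and 79.3 CPM to 78.6, 175 and 117 CPM. Without replicate 2 of hippocampus it was at 0.50 (adjusted p 0.0621) and no longer passed. Fyn was among the 10 top genes of clusters 7 and 13, of committed precursors. Markers of that class in SST cells summed to 3.42, 3.41 and 7.59 CPM in WT cortex and 9.89, 41.5 and 22.1 in WT hippocampus. OPC markers summed to 20.7, 45.9 and 42.3 CPM against 58.8, 134 and 77.4. The part of such RNA in the change of Fyn was not tested. Ptpro, a phosphatase of Eph receptors, rose by 0.88 (SE 0.24, adjusted p 0.0410), from 13.7, 24.8 and 15.1 CPM to 32.8, 28.2 and 38.4 CPM, without overlap. Ngef, the exchange factor ephexin, fell by 1.08 (SE 0.26, adjusted p 0.0189), from 24.5, 17.7 and 19.0 CPM to 12.5, 5.44 and 12.2 CPM. The Rap regulator Sipa1l1 fell by 0.86 (SE 0.22, adjusted p 0.0312), from 27.8, 48.2 and 35.1 CPM to 21.9, 20.3 and 20.5 CPM. Chn1, the Rac-inactivating protein through which EphA4 acts on axons, fell by 0.72 (SE 0.18, adjusted p 0.0210), from 403, 387 and 311 CPM to 239.6, 239.8 and 211 CPM. For the last 4 genes the regions did not overlap. Without replicate 2 of hippocampus these 4 passed, and Anks1b and Rock2 as well, beside 9.64% of all genes. In PVALB cells this last setting called 1 of the list, Chn1, which fell by 0.71 (SE 0.18, adjusted p 0.0170), beside 3.39% of all genes.

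Patterns over all sums of a class and library were compared by Pearson's r over 55 sums and 7411 genes, as a description, since sums of a library share its depth and chemistry. Among the genes most like Epha5 were Pclo (r 0.882) and Frrs1l (0.869), and Epha7 was most like Hpcal4 (0.876), Necab1 (0.868) and Syt5 (0.866). Nearest to Epha3 were Clmp (0.846), Serpini1 (0.843) and Rassf3 (0.839), nearest to Epha4 Mbd5 (0.758), Abi2 (0.752) and Leo1 (0.745), and nearest to Epha6 Tcf25 (0.825), Col25a1 (0.817) and Dgkg (0.801). Ephb1 was most like Slain1 (0.825), Sema6a (0.811) and Ugt8a (0.806), the last an enzyme of myelin lipid synthesis. Ephb2 was most like Dpf1 (0.781), Fbll1 (0.772) and Csmd1 (0.765), and Efnb3 was most like Slco3a1 (0.815), Elavl3 (0.780) and Tspan2 (0.772). Efna3 was most like Mal2 (0.941), Cacng3 (0.920) and Svop (0.913), and Efna5 most like Fkbp1b (0.904), Nrip3 (0.901) and Rell2 (0.890).

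The ligand genes Efna3 and Efna5 were the most alike of the members, with an r of 0.865, and the next pair was Epha7 and Efna3 (0.713). Their promoters are shown for that reason, from 250 bases before to 50 after the gene start (RefSeq, GRCm38.p6, minus strand), Efna3 from chr3:89322890-89323189, the entry at its outermost start, and Efna5 from chr17:62881268-62881567. Of the members, 9 had an entry. Both strands were searched for a GC box, spelled GGGCGG, and for a CAAT box and a TATA box. The CAAT box was spelled CCAAT here. For the TATA box the letters were TATAAA. Capitals mark the GC box on either strand, which shared no letters with the CAAT box in these windows.
Efna3: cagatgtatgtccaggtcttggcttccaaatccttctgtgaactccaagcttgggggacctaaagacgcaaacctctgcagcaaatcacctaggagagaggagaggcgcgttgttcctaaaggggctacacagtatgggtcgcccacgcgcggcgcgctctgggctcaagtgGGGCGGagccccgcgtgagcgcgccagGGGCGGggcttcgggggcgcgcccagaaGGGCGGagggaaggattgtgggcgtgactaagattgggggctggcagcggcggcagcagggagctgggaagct
Efna5: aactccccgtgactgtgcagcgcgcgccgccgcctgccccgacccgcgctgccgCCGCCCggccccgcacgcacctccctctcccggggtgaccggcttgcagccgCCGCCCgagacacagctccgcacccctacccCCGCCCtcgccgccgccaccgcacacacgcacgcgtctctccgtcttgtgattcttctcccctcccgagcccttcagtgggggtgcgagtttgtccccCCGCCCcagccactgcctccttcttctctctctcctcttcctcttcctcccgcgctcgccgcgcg
The Efna3 window held 22 CG dinucleotides, a number that 23.1% of 32851 promoters reach, with 3 GC boxes, 1 CAAT box and 0 TATA boxes. A second Efna3 entry, chr3:89321719-89322018, held 34 CG dinucleotides (reached by 7.73%), with 3 GC boxes, 0 CAAT boxes and 0 TATA boxes. The Efna5 window held 38 CG dinucleotides (reached by 4.95%), with 4 GC boxes, 0 CAAT boxes and 0 TATA boxes. Among all promoters the median was 7 CG dinucleotides, 35.7% held a GC box, 37.4% a CAAT box and 13.6% a TATA box. The motifs are matches of letters in these windows, and no binding was measured.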

How the data were processed

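The deposited counts are UMI counts per gene and cell, without normalization. Genes were lengthened past their ends by 4 kb, or halfway to the next feature where that was nearer. The authors made the counts with Cell Ranger 2.1.1 against mm10. The matrix headers name a later version of that program, and whether read depth was equalised when libraries were combined is not known, so the depths given describe the deposited counts. Barcodes and gene symbols are deposited beside them as other, unitless columns. Libraries were told apart by barcode suffix and matched to replicates by their cell numbers. Cells were kept at 200 to 6000 genes if mitochondrial UMIs made up less than 30%, and were clustered with Seurat 5.3.0 (2000 variable features, 25 dimensions, resolution 1), giving 35 clusters, which were named by at least 3 markers at 20 CPM. Counts were summed per library and class (at least 10 cells) and tested with edgeR 4.0.16 (R 4.3.3): TMM scaling, filterByExpr, quasi-likelihood tests, and Benjamini-Hochberg adjustment over all genes tested. A gene passed at an adjusted p of 0.01 and a natural-log change of 0.1. Tables and figures were made with python 3.11.15, scanpy 1.11.5, scipy 1.17.1, numpy 2.4.6 and pandas 2.3.3.

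Replicate numbers were checked as pairs by correlating residuals across genes: WT libraries of the same number in the other region had r from 0.243 to 0.777 (9 pairs of sums) and those of other numbers from -0.692 to 0.255 (18 pairs). The residuals were deviations from group means and cancel within a group, so a high r for the same number lowers the others. Replicate 1 also differed in chemistry, and the labels do not state the pairing. Depth per library is given with the results, and counting error with intervals. Named genes were the 10 members, Grin1, other family genes at 20 CPM or more in a class, signalling genes past the thresholds (at most 4 a comparison), and up to 3 genes most like each member. Fyn, Ptpro, Ngef, Sipa1l1, Chn1, Anks1b and Rock2 fall outside this rule, having been picked with their values known. The members and lists were chosen with earlier results of these data known.

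Alternatives were DESeq2 1.42.0, library-size scaling, no filter on low counts, an adjusted p of 0.05, the replicate block, sums of at least 20 cells, resolution 0.6 (27 clusters), stricter cells (at least 1000 genes, at most 10% mitochondrial UMIs), removal of 249 cells marked by Scrublet, only the groups compared, and each library left out. Chosen after the data were seen were PVALB cells without the Pthlh and Crabp1 clusters, the block with an adjusted p of 0.05, and the latter without WT hippocampus replicate 2.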

Additional observations from a re-analysis of the deposited data

How the results depend on the processing

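The count of members past the thresholds was 0 in all 14 comparisons, and 287 of its 292 values under alternatives were also 0. With a library left out it ran from 0 to 0 in every comparison. It was 1 in PVALB cells of the cortex between genotypes with no filter on low counts and 1 with only the groups compared (Epha4 in both). Between WT regions it was 3 in SST cells and 1 in PVALB cells with the replicate block and an adjusted p of 0.05, and 4 in SST cells when WT hippocampus replicate 2 was also left out. The replicate block for genotypes gave 0 members. Libraries of a number there had r from 0.170 to 0.296 over 10 pairs of sums, with at most 2 pairs in a region of a class. The cause was not tested in any of these.

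Of the log2 changes given in the text for members and Grin1 (those of the signalling genes were not counted), 590 values under alternatives kept their side of the thresholds and their sign, 28 passed where the reported value did not, and 8, all of Grin1 with a library left out, no longer passed. The averaged change of Epha4 in PVALB cells reversed to -0.024 without the Pthlh and Crabp1 clusters, and that of Epha5 between genotypes in SST cells of the hippocampus ran from -1.24 to 0.031 with a library left out, reversed without WT hippocampus replicate 2. That of Ephb1 between genotypes in PVALB cells of the hippocampus ran from -2.34 to 0.16, reversed without WT hippocampus replicate 3. The cause was not tested. Over all members, 146 of 2568 refitted changes had the opposite sign, 99 of them with a library left out, and 0 of the 146 passed the thresholds. These reversals fell in 63 of the 124 pairings of a member with a comparison. The largest main change to reverse was 1.56 in size. Among all genes, the calls between WT regions in SST cells numbered 5 by edgeR and 141 by DESeq2. Mean WT levels moved by less than 1 SD in 356 of 360 values.

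Groups of 2 or 3 libraries, with several animals pooled in each, limit all tests. Where leaving out a library left a group with 1, the lone library was taken to vary like the others. Depth limits Ephb2 and Epha6 in PVALB cells and Ephb2 in NGFC cells, which had too few counts to be tested between genotypes. Chemistry and replicate number cannot be told apart from preparation.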
